A study of Homo sapiens with 18 samples.

Results

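The young lysates of a ribosome profiling series in IMR90, primary human fetal lung fibroblasts, were described by the footprints that each mRNA carried relative to its own abundance. Each of the 3 young lysates gave a Ribo-seq library, made from the stretches of mRNA that lie inside ribosomes and so survive digestion, and an mRNA-seq library, together 6 of the 18 libraries of the series. The members were chosen by their labels alone: the libraries titled young, paired by replicate number. Young cells were proliferating cells at low passage, old cells had been passaged into replicative senescence, and ICM cells were treated with inflachromene, a compound that targets the chromatin proteins HMGB1 and HMGB2. All 3 conditions carried no genetic change, all lysates were made with cycloheximide, which arrests elongating ribosomes, and the mRNA-seq part of each lysate was enriched for poly(A) RNA per the study's methods, although the labels name total RNA. The cells are 1 line from 1 donor, so the 3 lysates are separate cultures and not separate people. The label of the cells held: all 10 fibroblast markers were at 1 CPM (counts per 1e+06 CDS reads) or more in mRNA-seq, with a summed level of 44102 to 51672 CPM, whereas 1 of 8 epithelial, 1 of 7 endothelial and 2 of 8 blood cell markers reached 1 CPM, and PECAM1, CDH5, CD3E, LYZ and SPI1 had no mRNA-seq read.

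An mRNA is translated by several ribosomes at once, and the number of footprints in its coding sequence (CDS) follows how many copies of the mRNA there are, how often ribosomes start on each copy and how long they take to travel along it. The ratio of footprints to mRNA reads, here called the ribosome load, therefore sets genes of equal mRNA abundance apart by how densely their mRNAs are occupied. Known classes that depart from the average include the mRNAs of the translation machinery, whose 5′ terminal oligopyrimidine (TOP) tract lets them leave polysomes when growth signalling falls, mRNAs with an iron response element, whose hairpin is bound by iron regulatory proteins, and mRNAs with upstream reading frames, which capture ribosomes ahead of the CDS.

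Depth limited the footprints more than the mRNA. The Ribo-seq libraries of lysates 1, 2 and 3 held 54421, 685061 and 1718521 CDS reads, and the mRNA-seq libraries 5183895, 7405354 and 6485149. The Ribo-seq library of lysate 1 stood apart: 34.4% of its reads lay in the CDS (95% interval 34.1% to 34.6%, exact binomial, counting error only) and 52.5% in non-coding RNA, against 84.4% and 88.8% in the CDS and 7.34% and 4.75% in non-coding RNA in the others. The summed level of 8 genes that are high in ICM libraries was 263 CPM in it and 75.4 and 78.7 CPM in the others. At the depth of lysate 1 that sum rested on few footprints. One footprint in lysate 1 is worth 15.5 CPM after scaling, so its single-gene values are coarse. Between lysates 2 and 3 the per-gene log2 ratio of footprints to mRNA correlated across 5999 genes with r = 0.913, and between lysate 1 and the others with 0.603 and 0.601 (genes are not replicates, and each pair shares no library).

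Footprint and mRNA levels followed each other over most of the transcriptome. Of 38716 gene symbols listed, 11152 passed a filter on low counts in at least 1 assay, and 5999 passed it in both. Across the 11152 genes the mean footprint level correlated with the mean mRNA level with r = 0.833 on the log2 scale (Spearman's rho 0.848), and the load of 75% of genes lay within 2-fold of 1. The median load was 0.965 (log2 -0.05), the middle 90% of genes ran from 0.246 to 2.25, and the middle 98% from 0.0966 to 4.72. A load is relative: it compares a gene's share of CDS footprints with its share of CDS mRNA reads, after TMM scaling, and says nothing of the total amount of translation.

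In the paired test (edgeR quasi-likelihood with the lysate as a block, called at a Benjamini-Hochberg adjusted p under 0.05), 47.5% of the genes tested were called, 2482 with a high load (22.3%) and 2818 with a low load (25.3%). Of these, 815 were called high and 1764 called low with a fitted load beyond 2-fold. Genes with few footprints made up much of the low side: 1239 of the 2818 low calls passed the filter in both assays, against 2069 of the 2482 high calls, and 42 of the genes tested had no footprint at all. The deeper lysates carried the calls. Without lysate 1, 2914 genes were called high and 3103 low, without lysate 2 they were 452 and 926, and without lysate 3 they were 415 and 736. DESeq2 in place of edgeR called 921 high and 1477 low.

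**Figure D1:**
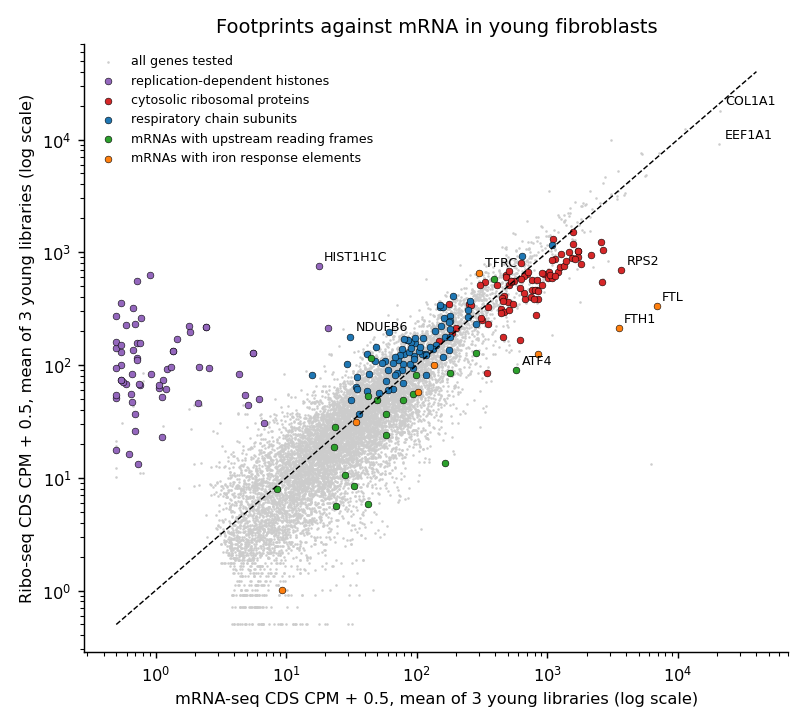
Mean footprint level against mean mRNA level of the 11152 genes tested in young fibroblasts, both as CDS CPM + 0.5 on log axes (n = 3 libraries each), with 5 gene lists coloured and the line of equal levels dashed. Most genes lie along the line, replicative histones lie far above it at the left, and FTL, FTH1, ATF4 and RPS2 lie below it.

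Low loads were frequent among ribosomal proteins and elongation factors. All 80 cytosolic ribosomal protein genes passed the filter in both assays; 46 were called low (57.5% of them, against 25.3% of all genes), 10 high and 24 not called, and their median log2 load was -0.45 against -0.05 over all genes. Together they took 7.84%, 7.31% and 6.40% of CDS mRNA reads in lysates 1, 2 and 3, but 5.06%, 4.52% and 4.47% of CDS footprints. In each of the 3 lysates the footprint share was lower, at 0.619 to 0.697 of the mRNA share; 3 paired lysates cannot give an exact two-sided permutation p below 0.25. The direction did not hold for every subunit: RPL38 (1.15), RPL36 (0.86) and RPL34 (0.79), singled out after their values were seen, were among the 10 called high, a count that was 16, 1 and 0 without lysates 1, 2 and 3 and 3 with DESeq2. RPS2, a protein of the small subunit, had 715, 720 and 641 CPM of footprints and 3681, 3849 and 3495 CPM of mRNA, with all 3 footprint values below all 3 mRNA values, as was the case for 31.2% of all genes (17.2% lay wholly above). Its log2 load was -2.42 (SE 0.19, edgeR adjusted p 4.71e-35), the lowest of the family. RPL3 of the large subunit, with 917, 1093 and 1157 CPM of footprints below 2452 to 2838 CPM of mRNA, was at -1.29 (SE 0.18).

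A list of 8 genes held 7 elongation factors and poly(A)-binding proteins and TPT1, which is neither but is a known TOP mRNA. Of these, 6 including TPT1 were called low (75%, against 25.3% of all genes) and none high, with a median log2 load of -1.33 over the 8. EEF1A1, which carries aminoacyl-tRNAs to the ribosome and was among the most abundant mRNAs of these cells, had 6281, 10150 and 10868 CPM of footprints and 20958, 21821 and 19138 CPM of mRNA. The 2 sets of libraries did not overlap, and the log2 load was -1.21 (SE 0.20, edgeR adjusted p 2.29e-08). PABPC1, the main cytoplasmic poly(A)-binding protein, was at 155, 192 and 202 CPM of footprints against 1109, 1116 and 1012 CPM of mRNA, a log2 load of -2.46 (SE 0.18). EEF2, the translocase, departed from both: its footprints at 3094, 3266 and 3671 CPM lay just below its mRNA at 3848, 4004 and 3905 CPM, and its log2 load of -0.23 (SE 0.18, edgeR adjusted p 0.298) was not called. Without lysate 2 the adjusted p of EEF1A1 was 0.071, and without lysates 1, 2 and 3 the ribosomal protein list had 50, 12 and 29 low calls. Ribosomal protein genes and EEF1A1 have many processed pseudogenes, and how reads with several matches were divided is not stated for these tables: EEF1A1 had values that were not whole in all 3 Ribo-seq and 2 mRNA-seq libraries.

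The start of a TOP mRNA can be seen in the annotated promoter sequence, where transcription begins at a C within a run of pyrimidines. The windows below hold 15 bases before and 15 bases from the annotated start of EEF1A1, TPT1 and 2 ribosomal protein genes with loads below 1 and of 2 glycolysis genes, read from RefSeq promoters (GRCh38.p14), with CTTTT or CTTTC on the strand of the gene in capitals. TPT1, RPLP1, RPL41 and ENO1 were chosen for display after their values were seen.
EEF1A1 (chr6:73521018-73521047, minus strand, log2 load -1.21): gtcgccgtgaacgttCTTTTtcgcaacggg
TPT1 (chr13:45341169-45341198, minus strand, log2 load -2.12): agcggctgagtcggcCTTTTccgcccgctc
RPLP1 (chr15:69452803-69452832, plus strand, log2 load -0.98): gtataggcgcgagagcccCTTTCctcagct
RPL41 (chr12:56116618-56116647, plus strand, log2 load -0.40): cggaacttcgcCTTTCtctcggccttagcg
GAPDH (chr12:6535249-6535278, plus strand, log2 load 0.08): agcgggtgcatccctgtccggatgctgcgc
ENO1 (chr1:8878672-8878701, minus strand, log2 load 0.44): gcgggcggcgcggacagtatctgtgggtac

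CTTTT or CTTTC, 2 motifs that can overlap within one longer run, was found on the gene's strand in the windows of 42 of the 64 ribosomal protein genes with a RefSeq promoter (65.6%), of 6.51% of 8921 genes tested and of 7.56% of all 27305 promoters. On the other strand the shares were 1.56% of the ribosomal protein genes and 3.45% of the genes tested. Within the family the motif did not go with the calls: it was in 64.7% of 34 low, 55.6% of 9 high and 71.4% of 21 uncalled members with a promoter. Over all genes it was in 7.14% of the windows of low and 6.06% of those of high calls. A match is a description of these letters at an annotated start and not evidence of a functional TOP tract.

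**Figure D2:**
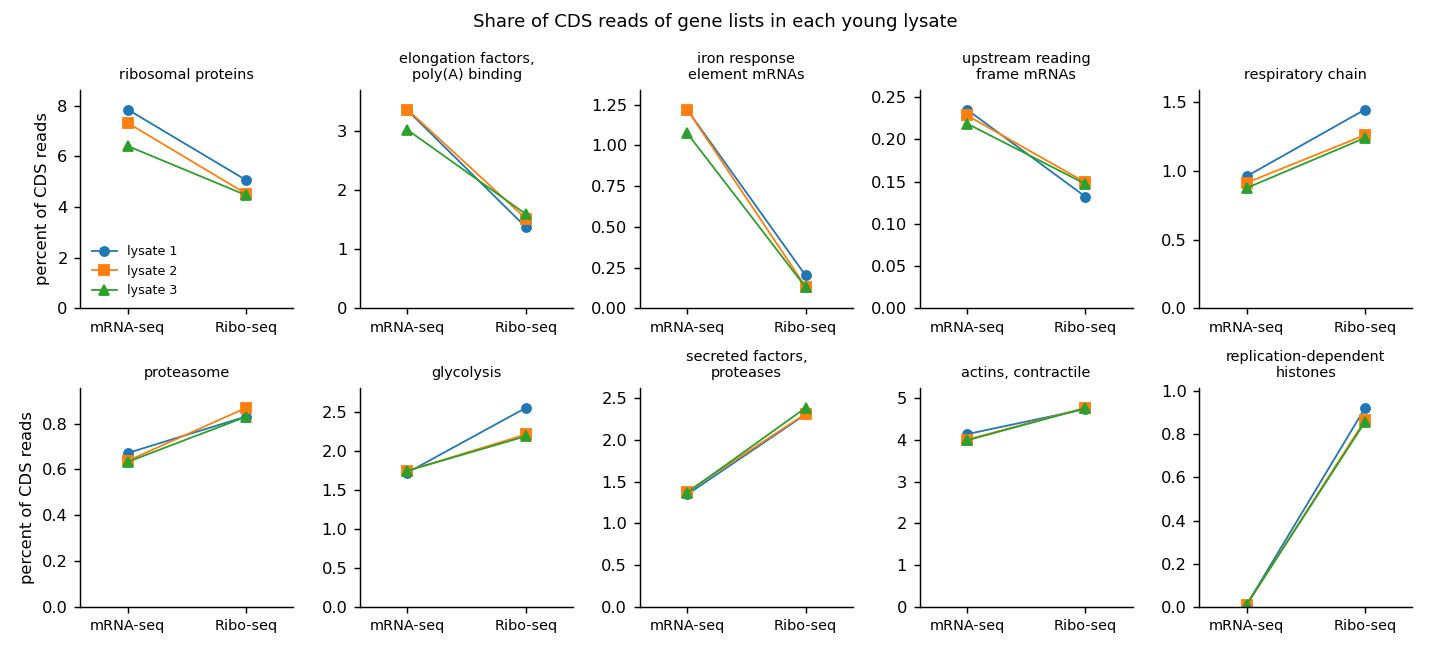
Percent of all CDS reads that 10 gene lists took in mRNA-seq and in Ribo-seq of each young lysate, one line per lysate and axes from 0. The lines of the ribosomal protein, elongation factor, iron response element and upstream reading frame lists go down in all 3 lysates, and those of the respiratory chain, proteasome, glycolysis, secreted factor, contractile and replication-dependent histone lists go up in all 3.

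The next list holds mRNAs that carry iron response elements, hairpins with the loop CAGUGN to which iron regulatory proteins bind when iron is low. In the 5′ UTR, as in the ferritin mRNAs, the bound hairpin is known to block initiation, and in the 3′ UTR of TFRC, the transferrin receptor, it is known to protect the mRNA from decay. All 8 listed genes were tested: 6 were called low (75%, against 25.3% of all genes), TFRC high and SLC11A2 not called, and 7 passed the filter in both assays. Its median log2 load of -1.65 was the lowest of the lists here, but not among genes passing both assays or with 20 CPM of mRNA, where it was -0.71 and -0.51 against -1.45 and -1.27 for the elongation factor list. Without lysates 1, 2 and 3 it had 6, 4 and 3 low calls. The list took 1.22%, 1.22% and 1.08% of CDS mRNA reads and 0.202%, 0.133% and 0.130% of CDS footprints, with the ferritins holding most of the mRNA. The hairpin's loop, with the unpaired C that stands 5 bases before it in capitals together with it, is shown for the 5′ UTRs of FTL, FTH1, EPAS1 and SLC40A1 and for 1 of 5 matches in the 3′ UTR of TFRC (30 bases each, from the GENCODE canonical transcripts on GRCh37, exon 1 for the 5′ sites and exon 19 for TFRC).
FTL (chr19:49468589-49468618, plus strand): tgtctcttgCttcaaCAGTGTttggacgga
FTH1 (chr11:61735048-61735077, minus strand): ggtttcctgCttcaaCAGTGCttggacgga
EPAS1 (chr2:46524615-46524644, plus strand): ccgtacaatCctcggCAGTGTcctgagact
SLC40A1 (chr2:190445389-190445418, minus strand): ttccaacttCagctaCAGTGTtagctaagt
TFRC (chr3:195777852-195777881, minus strand): tataattatCggaagCAGTGCcttccataa

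The motif searched, a C, any 5 bases and then CAGTGN, was matched on the transcript strand only. It also matched at 1 place of the 5′ UTR of CDC42BPA, at 3 places of its 3′ UTR, at 2 places of the 3′ UTR of SLC11A2 and at 1 place each of the 3′ UTRs of FTH1 and EPAS1. It was also present in 5.80% of 10740 5′ UTRs of genes tested (median length 137 bases), so its letters alone are not particular to these mRNAs, and in 38.9% of their longer 3′ UTRs.

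FTL, the ferritin light chain, had 606, 192 and 197 CPM of footprints against 6923, 7225 and 6521 CPM of mRNA. All 3 footprint values were below all mRNA values, the value of lysate 1 being the highest of the 3, and the log2 load was -4.80 (SE 0.23, edgeR adjusted p 1.14e-95). FTH1, the ferritin heavy chain, was at 264, 218 and 150 CPM of footprints and 3928, 3688 and 2942 CPM of mRNA, a log2 load of -4.15 (SE 0.21). EPAS1, a hypoxia-inducible transcription factor, was at 124, 141 and 108 CPM against 861, 934 and 752 CPM, a log2 load of -2.77 (SE 0.19). In these 3 genes the assays did not overlap, and each was called low under each alternative tried. SLC40A1, the iron exporter ferroportin, had 1 footprint in the 3 libraries and 164 mRNA reads, and was not called without lysate 3. TFRC went the other way: 560, 666 and 745 CPM of footprints lay above 293, 288 and 323 CPM of mRNA, a log2 load of 1.16 (SE 0.15, edgeR adjusted p 3.86e-13). CDC42BPA, a kinase with matches in both UTRs, was at -0.53 (SE 0.17). Ferritin genes have many pseudogenes, and the part of shared reads in these values was not tested. FTL had values that were not whole in 1 Ribo-seq library and in no mRNA-seq library.

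Among mRNAs known for control through upstream reading frames, 20 of 21 were tested, of which 12 were called low (60%, against 25.3% of all genes) and 3 high, with a median log2 load of -0.88. Without lysates 1, 2 and 3, 12, 7 and 5 were called low. Of the 12 that passed the filter in both assays, 7 were called low and 2 high when only such genes were tested. Those 7 included CEBPB (log2 load -0.37, edgeR adjusted p 0.027), which was not called in the main test. SLC35A4, DDIT3, PPP1R15A, ATF5, SAT1 and SMOX, called low in the main test, did not pass the filter in both assays. ATF4, the transcription factor of the integrated stress response, had 93.3, 85.1 and 90.0 CPM of CDS footprints and 641, 603 and 496 CPM of mRNA, without overlap, a log2 load of -2.62 (SE 0.18, edgeR adjusted p 1.28e-44). Its footprints lay ahead of the CDS: 11, 155 and 264 reads in the 5′ UTR against 6, 55 and 143 in the CDS in lysates 1, 2 and 3. The 5′ UTR thus held 67.8% of its 5′ UTR and CDS footprints and 29.5% of its mRNA reads, whereas over all genes the figures were 3.30% and 14.1%.

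SLC35A4, a gene whose upstream reading frame is long and conserved, showed the extreme case, with 2 footprints in its CDS over the 3 libraries and 64 in its 5′ UTR, against 792 and 875 mRNA reads. DDIT3 (CHOP), a stress-induced transcription factor, had 13 CDS and 24 5′ UTR footprints and a log2 load of -2.39 (SE 0.38). PPP1R15A (GADD34), which brings a phosphatase to eIF2α, had no CDS footprint in lysate 1 and 21.7 and 17.0 CPM in the others against 156 to 170 CPM of mRNA, a log2 load of -3.17 (SE 0.22). In AZIN1, which controls polyamine synthesis, 151 footprints in the 5′ UTR stood beside 227 in the CDS. ATF5 had 31 and 14, and its log2 load was -1.81 (SE 0.40). The call of ATF5 was lost with DESeq2 and without lysate 2 or 3. SLC35A4, DDIT3, PPP1R15A and ATF5 passed the filter on low counts through their mRNA alone, so a low load was favoured in advance.

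Polyamine enzymes of the list were also low. ODC1, the first enzyme of polyamine synthesis, was at 155, 115 and 110 CPM of footprints against 300, 284 and 275 CPM of mRNA, a log2 load of -1.29 (SE 0.16), with 7.50% of its footprints and 15.8% of its mRNA reads in the 5′ UTR, a footprint share between that of all genes and that of ATF4. SMOX, a polyamine oxidase, had 19 CDS footprints, none in the 5′ UTR, and a log2 load of -1.77 (SE 0.35). SMOX did not pass the filter in both assays, and its call was lost without lysate 2 or 3. MDM2, the p53 ubiquitin ligase, was called high, at 140, 102 and 101 CPM of footprints over 44.7, 49.2 and 39.4 CPM of mRNA, a log2 load of 1.26 (SE 0.17), which was 0.21 and not called (edgeR adjusted p 0.27) when mRNA-seq reads in UTRs were counted. EPRS, a tRNA synthetase, and UCHL5, a proteasome-bound deubiquitinase, were at 0.65 (SE 0.16) and 0.44 (SE 0.19). EPRS lost its call with DESeq2 and without lysate 2 or 3, and UCHL5 did so under those and 6 further alternatives, scaling and filter among them, so that MDM2 was the high call of the list without lysate 2 or 3. CEBPB, PPP1R15B, CDKN1B, HBEGF and TIPARP were not called, at log2 loads of -0.19, 0.34, 0.54, 0.67 and -0.05.

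**Figure D3:**
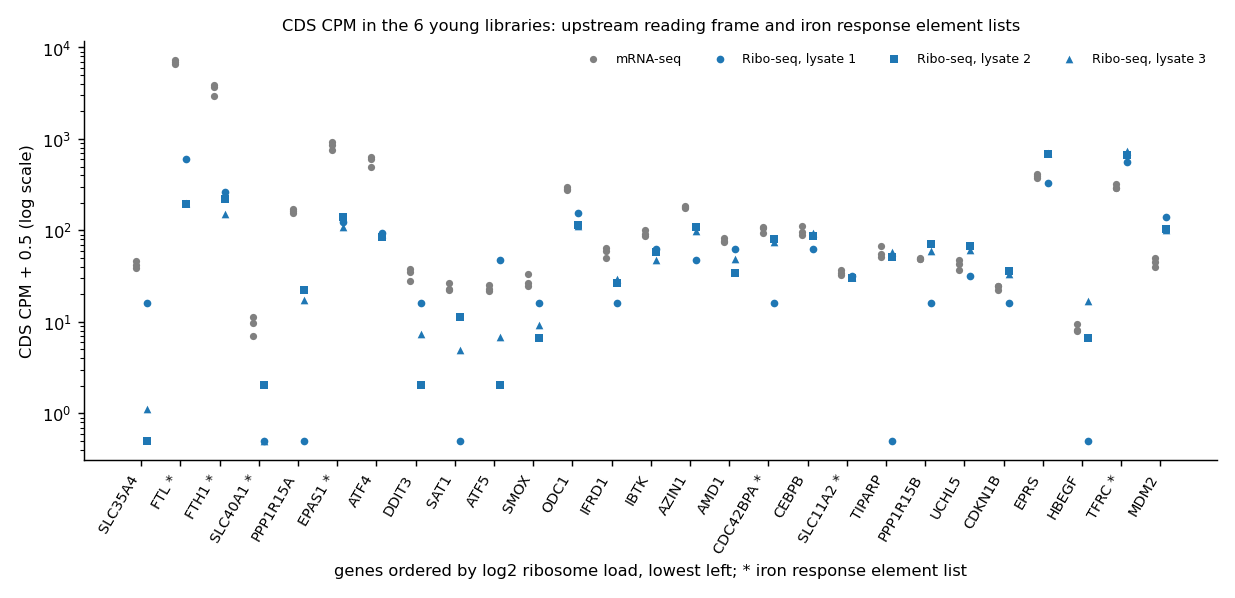
CDS CPM + 0.5 (log axis) of 27 tested genes of the upstream reading frame list and, starred, of the iron response element list in the 3 mRNA-seq libraries (grey) and the 3 Ribo-seq libraries (blue, one symbol per lysate). Footprints lie far below mRNA on the left, from SLC35A4 to ATF4, and above it for TFRC and MDM2 on the right.

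Selenoprotein mRNAs, in which a UGA codon is read as selenocysteine, were split. Of 16 of 18 tested, 6 were called low and 3 high (37.5% and 18.8%, against 25.3% and 22.3% of all genes), and without lysate 2 or 3, 4 and none. GPX4, which reduces lipid peroxides, had 124, 128 and 144 CPM of footprints below 622, 641 and 574 CPM of mRNA, a log2 load of -2.15 (SE 0.17, edgeR adjusted p 1.32e-32). TXNRD1, the cytosolic thioredoxin reductase, whose selenocysteine is the penultimate residue, lay above its mRNA in each lysate at 2208, 1769 and 1589 against 1385, 1311 and 1343 CPM (log2 load 0.43, SE 0.17). Its call was lost with DESeq2, with UTR reads counted and without lysate 2 or 3 (adjusted p between 0.1 and 0.44), whereas GPX4 was called under each alternative.

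High loads were shared by most of the machinery of energy supply and protein turnover. Of 75 nuclear-encoded subunits of the respiratory chain and ATP synthase, 53 were called high (70.7%, against 22.3% of all genes) and none low, with a median log2 load of 0.56. They took 0.960%, 0.913% and 0.875% of CDS mRNA reads and 1.44%, 1.26% and 1.24% of CDS footprints in lysates 1, 2 and 3. NDUFB6, an accessory subunit of complex I, was the highest, with 171, 187 and 176 CPM of footprints over 28.4, 32.8 and 30.4 CPM of mRNA, a log2 load of 2.53 (SE 0.16, edgeR adjusted p 1.33e-52). Of its 5′ UTR and CDS mRNA reads, 46.4% lay in the 5′ UTR, against 14.1% over all genes, and these are not in the load. The catalytic ATP synthase subunits were nearer to 1: ATP5F1A was at 0.57 (SE 0.16), and ATP5F1B, with 902, 1234 and 1338 CPM of footprints around 1081 to 1116 CPM of mRNA, overlapped its mRNA at 0.12 (SE 0.17, edgeR adjusted p 0.576). Without lysate 1, 2 and 3, 61, 15 and 11 of the 75 were called high, and DESeq2 called 24.

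Mitochondrial ribosomal proteins followed less evenly, with 29 of 78 called high and 7 low and a median of 0.34. Their shares were 37.2% high and 8.97% low, against 22.3% and 25.3% of all genes. Without lysates 1, 2 and 3 the high calls were 38, 6 and 4, and with DESeq2 they were 11. MRPS21 had 171, 132 and 115 CPM of footprints over 42.3, 39.7 and 32.6 CPM of mRNA (log2 load 1.80, SE 0.17), with 51.2% of its 5′ UTR and CDS mRNA reads in the 5′ UTR. MRPL37, the most abundant mRNA of the list, was called low, at 31.1, 77.4 and 80.6 CPM below 135 to 155 CPM of mRNA (log2 load -0.89, SE 0.16), although not without lysate 2 (edgeR adjusted p 0.072) or with UTR reads counted (log2 load -0.30, adjusted p 0.127). The cytosolic and the mitochondrial ribosomal proteins thus had medians on opposite sides of all genes.

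Among proteasome subunits, 24 of 37 tested were called high (64.9%, against 22.3% of all genes) and none low (median 0.53). PSMD12, a lid subunit, was at 124, 212 and 198 CPM of footprints above 76.5, 72.4 and 81.1 CPM of mRNA (log2 load 1.35, SE 0.14), while PSMD2, the most abundant member, was at -0.36 (SE 0.16, edgeR adjusted p 0.0515). Of 17 glycolysis enzymes, 12 were called high (70.6%) and none low (median 0.45). PKM, which makes pyruvate and ATP, had 4182, 4957 and 4766 CPM of footprints over 2661, 2765 and 2809 CPM of mRNA, a log2 load of 0.76 (SE 0.18), and HK2, which traps glucose as its phosphate, was at 1.52 (SE 0.21). GAPDH, with 7805, 7513 and 7604 CPM of footprints and 7203, 7467 and 7002 CPM of mRNA, was at 0.08 (SE 0.19, edgeR adjusted p 0.753), so the most abundant glycolytic mRNA had an average load. Of 25 cytosolic chaperones, 16 were called high and 1 low (64% and 4%, median 0.44), PTGES3 (p23) being the highest at 1.43 (SE 0.14). Leaving out lysate 2 or 3 left 5 and 5 high calls among proteasome subunits, 2 and 3 among glycolysis enzymes and 1 and 1 among chaperones. Leaving out lysate 1 gave 28, 13 and 20.

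**Figure D4:**
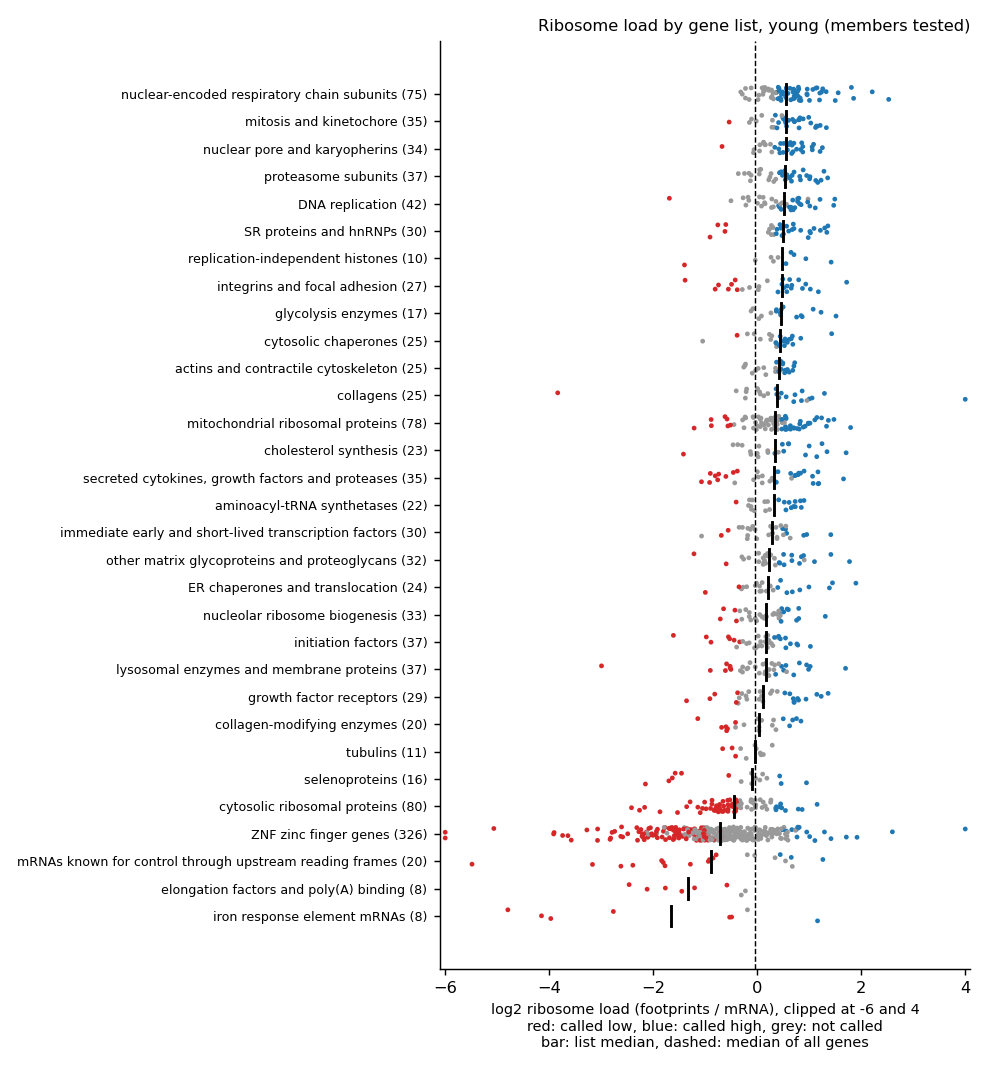
Fitted log2 ribosome load of the tested members of 31 gene lists (number tested in brackets), ordered by list median, with the replication-dependent histones left out because of their scale. Bars mark list medians from -1.65 for iron response element mRNAs to 0.56 for respiratory chain subunits, and the dashed line the median of all genes, -0.05.

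For the secreted and structural proteins that define fibroblasts, loads depended on the member. The most abundant matrix mRNAs were near 1. COL1A1, the main chain of type I collagen, had 15890, 19682 and 18574 CPM of footprints and 18956, 21556 and 22877 CPM of mRNA, overlapping between the assays (log2 load -0.23, SE 0.20, edgeR adjusted p 0.359), and COL1A2, its partner chain, was at 0.13 (SE 0.19). Of 25 of 44 collagen genes tested, 13 were called high and 1 low (52% and 4%, against 22.3% and 25.3% of all genes, median 0.38). The high calls were 13, 2 and 4 without lysates 1, 2 and 3 and 6 with DESeq2. Of the 25, 19 passed the filter in both assays. COL2A1, among the high calls, passed it through its footprints alone, so a high load was favoured in advance. SPARC, a collagen-binding glycoprotein, was at 0.03 (SE 0.18), whereas FN1 (fibronectin) was at 0.51 (SE 0.19) and THBS1, an activator of latent TGF-β, at 2643, 3783 and 4158 CPM of footprints over 905, 1026 and 1152 CPM of mRNA, a log2 load of 1.77 (SE 0.18, edgeR adjusted p 4.51e-22). Other matrix glycoproteins and proteoglycans gave 12 high and 2 low calls among 32 tested (37.5% and 6.25%, median 0.23), and 21 high without lysate 1 but 2 without lysate 2 or 3. The enzymes that modify collagen did not share a direction, with 5 high and 6 low calls among 20, and no high and 1 low call without lysate 2 or 3. Their shares of 25% and 30% were near the 22.3% and 25.3% of all genes. SERPINH1 (HSP47), the collagen chaperone, was at 0.50 (SE 0.17), and LOXL1, a cross-linking enzyme, at -1.14 (SE 0.16).

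Among secreted cytokines, growth factors and proteases, 15 of 35 tested were called high and 9 low (42.9% and 25.7%, the latter close to the 25.3% of all genes; median 0.33). Without lysate 2 they were 4 and 0, without lysate 3 they were 3 and 0, and with UTR reads counted 10 were high and 12 low. IGFBP5, an IGF-binding protein and the most abundant mRNA of the list, had 7649, 10759 and 11084 CPM of footprints over 2790, 3249 and 3227 CPM of mRNA, a log2 load of 1.66 (SE 0.19). Its direction depended on how mRNA was counted: with reads of the UTRs added to those of the CDS its load was -0.76 and called low (edgeR adjusted p 0.0014). TIMP1, an inhibitor of matrix metalloproteinases, was at 0.74 (SE 0.18). Integrin and focal adhesion genes gave 15 high and 7 low calls of 27, and 16, 3 and 5 high without lysates 1, 2 and 3. Their shares were 55.6% high, against 22.3% of all genes, and 25.9% low, close to the 25.3% of all genes. ITGA2, a collagen receptor chain, was at 109, 232 and 246 CPM of footprints over 64.5, 65.1 and 73.5 CPM of mRNA (log2 load 1.72, SE 0.14), and ITGB1, the common β chain, at -0.29 (SE 0.18, edgeR adjusted p 0.186). Actins and contractile proteins gave 15 high (60%) and no low calls of 25 (median 0.42), 19 high without lysate 1 and none without lysate 2 or 3. ACTB and ACTG1, with -0.26 and -0.24 (SE 0.18 each), were not called. Tubulins gave no high and 3 low calls of 11 (27.3% low, near the 25.3% of all genes), which became 4 high and no low calls with UTR reads counted and none of either without lysate 2 or 3.

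In these proliferating cells high calls outnumbered low ones among genes of the cell cycle. Of 35 genes of mitosis and the kinetochore, all passing the filter in both assays, 26 were called high and 1 low (median 0.55). These were 74.3% and 2.86%, against 22.3% and 25.3% of all genes. ANLN, which organises the cleavage furrow, had 155, 348 and 373 CPM of footprints against 195, 204 and 219 CPM of mRNA: lysate 1 was below and lysates 2 and 3 above (log2 load 0.68, SE 0.14). SPC25, a subunit of the kinetochore complex NDC80, was at 1.33 (SE 0.30). MKI67, the proliferation marker Ki-67, was the single low call, at 140, 176 and 116 CPM below 197 to 204 CPM of mRNA (log2 load -0.54, SE 0.15). Its call was lost with DESeq2, with UTR reads counted (log2 load -0.08) and without lysate 2 or 3. Of 42 DNA replication genes, 21 were called high and 1 low (50% and 2.38%, median 0.51). RRM2, the regulated subunit of ribonucleotide reductase, was at 0.97 (SE 0.14), MCM7, a helicase subunit, at 0.08 (SE 0.14), and POLD2, a subunit of DNA polymerase δ, at 77.7, 44.9 and 52.2 CPM below 160 to 180 CPM of mRNA, a log2 load of -1.69 (SE 0.18). These calls leaned on both deeper lysates: without lysate 2 or 3 the high calls were 0 and 1 in mitosis and 2 and 0 in replication, and without lysate 1 they were 29 and 23. DESeq2 called 10 and 6.

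Replication-dependent histones stood outside the range of all other lists. Their mRNAs are known to end in a stem-loop and to carry no poly(A) tail, and the mRNA-seq libraries were enriched for poly(A) RNA, so their ratio here cannot be read as ribosomes per mRNA. Of 74 listed, 63 were tested and 52 of these passed the filter only through their footprints, so they had to differ. The whole list took 0.922%, 0.867% and 0.857% of CDS footprints and 0.00955%, 0.00932% and 0.0104% of CDS mRNA reads. HIST1H4C, a histone H4 gene, had 249, 280 and 286 CPM of footprints and no mRNA read, so its ratio was at least 1783-fold, taking 3 reads over the 3 mRNA-seq libraries as the limit. HIST1H1C, a linker histone, was at 700, 793 and 770 CPM of footprints and 17.5, 17.3 and 16.9 CPM of mRNA (log2 ratio 5.47, SE 0.17). The replication-independent histones, whose mRNAs have poly(A) tails, were close to the other lists, with 5 high calls and 1 low among 10 and a median of 0.48. These were 50% and 10%, against 22.3% and 25.3% of all genes. They gave 8, 1 and 1 high calls without lysates 1, 2 and 3. H3F3A, which encodes the variant H3.3, was at 187, 269 and 246 CPM over 105, 95.9 and 89.5 CPM of mRNA (log2 load 1.42, SE 0.14).

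Among proteins that handle RNA in the nucleus, counts depended on the list. Of 30 SR proteins and hnRNPs, 20 were called high and 4 low (66.7% and 13.3%, against 22.3% and 25.3% of all genes, median 0.49). SRSF1, a splicing factor, was at 342, 313 and 299 CPM of footprints over 121, 125 and 117 CPM of mRNA, without overlap (log2 load 1.36, SE 0.14), and HNRNPK at 0.98 (SE 0.16). Nuclear pore proteins and karyopherins gave 23 high calls and 1 low of 34 (67.6% and 2.94%, median 0.55), with RAN, the transport GTPase, at 0.76 (SE 0.16). Nucleolar proteins of ribosome assembly were nearer to the background, with 10 high and 4 low calls of 33 (30.3% and 12.1%), and NPM1, an abundant nucleolar chaperone, was low at -0.71 (SE 0.16). Without lysates 1, 2 and 3 the high calls were 25, 5 and 9 among SR proteins and hnRNPs, 24, 0 and 2 among nuclear pore genes and 13, 0 and 0 among nucleolar genes.

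For initiation factors and tRNA synthetases high calls were at least as many as low ones. Of 37 initiation factor genes, 9 were called high and 7 low (24.3% and 18.9%, near the 22.3% and 25.3% of all genes). EIF4G2, which supports cap-independent initiation, had 808, 743 and 662 CPM of footprints below 2411, 2187 and 2129 CPM of mRNA, a log2 load of -1.61 (SE 0.18, edgeR adjusted p 6.26e-18), and EIF4A1, the helicase of the cap complex, was at 0.19 (SE 0.16). Aminoacyl-tRNA synthetases, which charge tRNAs, gave 11 high calls and 1 low of 22 (50% and 4.55%, median 0.32). AIMP1, a scaffold of the synthetase complex, was the largest of the calls at 0.90 (SE 0.17). Leaving out lysate 1 gave 18 high calls among initiation factors, and leaving out lysate 2 or 3 gave none in either list.

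Transcription factors were described as separate lists. Of 30 immediate early and short-lived factors tested of 35, 6 were called high and 2 low, and without lysate 2 or 3, 1 and none. The high share of 20% was near the 22.3% of all genes, and the low share was 6.67% against 25.3%. Relative to all genes the list median was 0.34, and -0.10 with UTR reads counted. SOX4 was at 1.41 (SE 0.21), which became 0.32 and lost its call when UTR reads were counted, and JUND at -0.69 (SE 0.17). Of 533 ZNF zinc finger genes, most of which encode DNA-binding repressors, 326 were tested, 103 of them called low (31.6%, against 25.3% of all genes) and 17 high, with a median of -0.72, and the low calls were 106, 26 and 13 without lysates 1, 2 and 3. This median rested on sparse genes: the 32 that passed the filter in both assays had 6 high and 13 low calls and a median of -0.14 when only such genes were tested. ZNF469 was at 171, 68.1 and 45.3 CPM of footprints and 162 to 191 CPM of mRNA, overlapping through lysate 1 (log2 load -1.59, SE 0.17; -0.97 and not called without lysate 3), and ZNF207, the most abundant, at 0.28 (SE 0.14, edgeR adjusted p 0.0872). ZNF528 had no footprint and 204 mRNA reads, at least 8.29-fold lower than its mRNA with 3 footprints as the limit.

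The last lists concern the secretory pathway, sterols, lysosomes and receptors. ER chaperones and translocation factors gave 9 high and 2 low calls of 24 (median 0.20), and 16, 3 and 2 high without lysates 1, 2 and 3. Their shares were 37.5% high and 8.33% low, against 22.3% and 25.3% of all genes. SEC61G, a subunit of the translocon, was at 124, 274 and 295 CPM over 61.6, 72.2 and 74.5 CPM of mRNA (log2 load 1.90, SE 0.14), and CALR (calreticulin) at -0.04 (SE 0.17). Of the 5′ UTR and CDS mRNA reads of SEC61G, 52.7% lay in the 5′ UTR. Cholesterol synthesis gave 11 high calls and 1 low of 23 (47.8% and 4.35%; median 0.34), and 11, 4 and 3 high without lysates 1, 2 and 3. MSMO1, a sterol oxidase, was at 1.71 (SE 0.16), and SREBF2, the transcription factor of the pathway, was the low call at 46.6, 71.2 and 77.4 CPM below 196 to 197 CPM of mRNA (log2 load -1.42, SE 0.16). Lysosomal genes gave 10 high and 7 low calls of 37 (2 and 1 without lysate 2 or 3), with IDS, which degrades glycosaminoglycans, at -2.99 (SE 0.28, 23 footprints). Their shares of 27.0% high and 18.9% low were near the 22.3% and 25.3% of all genes. Growth factor receptors gave 11 high and 5 low calls of 29 (37.9% and 17.2%, and 2 and 1 without lysate 2 or 3), with AXL at -0.40 (SE 0.16), a call that was lost with DESeq2, with UTR reads counted, in the fit of all 18 libraries and without lysate 2 or 3.

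Outside the list of replication-dependent histones, which does not hold the H2B gene H2BFS, the extremes were taken from 2899 called genes that averaged 20 CPM or more over the 6 libraries and had no overlap between the assays. The 8 lowest were LOC112268284, VEGFB, SLC35A4, ST6GALNAC6, FTL, B4GALT2, FTH1 and GAS2L1. VEGFB, a growth factor of the VEGF family, had at most 2 CDS footprints and 865 mRNA reads, B4GALT2, a galactosyltransferase, 10 and 2034, and GAS2L1, a cytoskeletal linker, 7 and 1052. VEGFB, SLC35A4, ST6GALNAC6, B4GALT2 and GAS2L1 passed the filter on low counts through their mRNA alone, so a low load was favoured in advance. LOC112268284, a locus without a gene name, had 31.1, 3.10 and 3.78 CPM of footprints and 3593, 7526 and 7732 CPM of mRNA. The 8 highest were COL2A1, LDHAL6A, ACTBL2, ZNF460, TAGLN3, LOC102724334, H2BFS and MYH14, with 3 to 72 mRNA reads in total. COL2A1, LDHAL6A, ACTBL2, ZNF460 and TAGLN3 passed the filter on low counts through their footprints alone, so a high load was favoured in advance. LOC102724334 and H2BFS, with 33 mRNA reads each, lay near its limit. COL2A1, a cartilage collagen, had 31.1, 105 and 119 CPM of footprints and 6 mRNA reads, and each of the 8 had values that were not whole numbers in at least 1 library. COL2A1, LDHAL6A, ACTBL2, TAGLN3, H2BFS and MYH14 belong to families with abundant members in these cells (collagens, lactate dehydrogenases, actins, transgelins, histones and non-muscle myosins), and LOC102724334 and H2BFS had identical values, so that as single genes they are uncertain; the part of reads from relatives in their loads was not tested.

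Coding length, which the choice of members did not use, went with the load across genes. Among 10999 tested genes with an annotated canonical CDS (GENCODE, histones left out), genes under 150 codons had a median log2 load of 0.30, with 37% called high and 16.6% low, and those of 150 to 299 codons 0.05. The median was -0.05 for 300 to 599, -0.15 for 600 to 1199 and -0.24 from 1200 codons on, where 18.7% were called high and 34.3% low. In each lysate the shortest genes had the highest median, 0.39, 0.35 and 0.36 above that of all genes, but in lysate 1 the longest genes (-0.05) lay above those of 600 to 1199 codons (-0.17). The relation was weak gene by gene (r = -0.12 between log2 length and log2 load, rho = -0.13), and the list values were not corrected for it. The length comparison was not repeated with mRNA-seq UTR reads counted. Respiratory chain subunits, with the highest list median, had a median of 141.5 codons, ribosomal proteins one of 151.5 and mitotic genes one of 846.

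**Figure D5:**
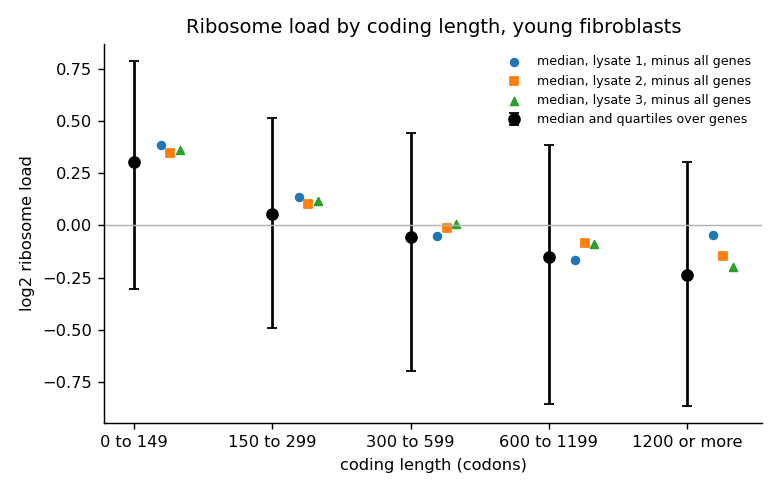
Median log2 ribosome load with quartiles over genes (black) in 5 bins of coding length in codons, and the median of each lysate relative to all genes of that lysate (coloured). The medians decrease from 0.30 in the shortest to -0.24 in the longest genes, within quartiles that span more than the difference between bins.

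Loads in young cells were then set beside those of the old and ICM lysates, measured the same way, and the difference was tested by an interaction term in a fit of all 18 libraries. Between old and young, 0.466% of genes differed (14, or 0.126%, higher and 38, or 0.341%, lower in old), and between ICM and young 1.02% (19, or 0.170%, higher and 95, or 0.852%, lower in ICM). The median difference over all genes was -0.34 in ICM and 0.04 in old, so lower calls in ICM were counted against a shifted centre. Before adjustment, 671 and 1526 genes had a p under 0.05. The shallow Ribo-seq libraries of ICM (46239 to 225041 CDS reads) and of old replicate 2 (54708) limited what could be seen. Composition differed too. In old replicates 1, 2 and 3, 77.8%, 15.0% and 54.7% of Ribo-seq reads lay in the CDS and 4.15%, 16.5% and 9.25% in 5′ UTRs. In young the CDS shares were 34.4%, 84.4% and 88.8%. The part of this in the differences was not tested. Replication-dependent histones made up 34 of the 38 and 48 of the 95 genes with a lower ratio than in young cells. Of the 63 tested, 52 passed the filter in young cells through their footprints alone, so a lower ratio elsewhere was favoured in advance and these counts support nothing. In the mitosis list, 5 genes had a higher load in ICM than in young cells and none differed in old. In the ICM Ribo-seq libraries 3 CDS reads stand for 13.3 to 64.9 CPM, so these differences can rest on few footprints. In the iron response element list, FTL, FTH1 and EPAS1 had higher loads in old than in young cells, with log2 loads of -2.88, -3.09 and -1.60 in old against -4.80, -4.15 and -2.77 in young (differences 1.89, 1.06 and 1.19; edgeR adjusted p 1.29e-10, 0.0422 and 0.024), and did not pass the test in ICM. EEF2 was higher in both, with log2 loads of 0.76 in old and 0.67 in ICM against -0.23 in young (edgeR adjusted p 0.0161 and 0.0362). No gene of the ribosomal protein, proteasome, glycolysis, chaperone, collagen, ZNF or upstream reading frame lists passed the test of the difference in either condition, which at this depth does not show that their loads were alike.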

How the data were processed

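Ribo-seq and mRNA-seq were available for 3 lysates each of young, old and ICM IMR90 cells, and the young lysates were analysed here. Per the study's methods, independent cultures were lysed with cycloheximide and each lysate was split between both assays, so replicate numbers pair them. The values are estimated counts of reads per gene and transcript region, not normalised, made and deposited by the authors, of which 16.2% to 21.1% of the non-zero values in the young libraries are not whole numbers. The submitters' processing notes name STAR 2.6.0c, featureCounts, deepTools, DESeq2 and GRCh37. Which of them made these tables, and how reads with several matches were shared, is not given in the sources used here.

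CDS counts were rounded to whole numbers, filtered with filterByExpr, TMM-scaled and fitted in edgeR 4.0.16 (R 4.3.3) with quasi-likelihood tests, lysate and assay as terms. The log2 ribosome load is the assay coefficient. SE was taken as the coefficient divided by the root of F. Differences from old and ICM came from interaction terms over all 18 libraries. Levels are TMM-scaled CPM of CDS reads, and marker sums are plain CPM. Lists were described by counts and medians and given no test. A gene count of 0 was bounded with 3 reads over the group. Exact intervals cover counting error only.

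The members, lists and tests were chosen with earlier results of these data known, and list symbols were completed for older names in the files. Named genes were the 2 most abundant mRNAs and the called member with the largest load of each list, all members of the upstream reading frame and iron response element lists, and the 8 highest and 8 lowest called genes. A few of these items are not reported here. Sequences came from RefSeq promoters (GRCh38.p14) and the GENCODE annotation lifted to GRCh37.

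Alternatives were plain totals, RLE scaling, other filters, DESeq2 1.42.0, no replicate block, mRNA-seq UTR reads added, thinned mRNA-seq, all 18 libraries, a 2-fold threshold and leaving out each lysate. The pairing rests on the methods: deviations from the group means correlated between same-numbered assays by -0.00882, -0.0177 and -0.000869. On simulated data with 200 genes changed 2-fold among 11152 in the young comparison, 70.5% were recovered.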

Additional observations from a re-analysis of the deposited data

Results flagged for a closer look

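The values below were singled out because the load of a named gene in old or ICM lysates differed from that in young lysates by edgeR's test of the difference (log2 difference in load, condition minus young, Benjamini-Hochberg adjusted p). Both comparisons share the young libraries, and each rests on 3 lysates a condition. Over all genes the median difference was 0.04 in old and -0.34 in ICM.

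Genes of the translation machinery with a higher load outside young cells were EEF2, by 1.00 in old (SE 0.25, adjusted p 0.0161) and 0.91 in ICM (SE 0.25, adjusted p 0.0362), and EEF1A1, by 0.81 in ICM (SE 0.23, adjusted p 0.0484). Of the iron response element mRNAs, FTL was higher in old by 1.89 (SE 0.26, adjusted p 1.29e-10), FTH1 by 1.06 (SE 0.29, adjusted p 0.0422) and EPAS1 by 1.19 (SE 0.31, adjusted p 0.024). The CDS held 15.0% to 77.8% of the reads of the old Ribo-seq libraries, and the part of this in the differences was not tested.

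The ratio of footprints to mRNA of the histone genes named here was lower outside young cells. Of 63 listed histones tested, 11 passed the filter in both assays and the rest through their footprints in young cells. For the latter a lower ratio elsewhere was favoured in advance. The mRNA-seq was enriched for poly(A) RNA, so these ratios cannot be read as ribosomes per mRNA. The differences of HIST1H2AC were -3.13 in old (SE 0.32, adjusted p 1.02e-19) and -3.49 in ICM (SE 0.36, adjusted p 2.70e-19), and those of HIST1H1C were -3.65 in old (SE 0.30, adjusted p 3.01e-29) and -5.06 in ICM (SE 0.31, adjusted p 1.02e-55). H2BFS and LOC102724334, which had identical values, were at -4.68 in old (SE 0.58, adjusted p 5.85e-13) and -5.79 in ICM (SE 0.76, adjusted p 2.00e-11). Each had 33 mRNA reads over the young libraries, near the limit of the filter.

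MKI67 had a load higher by 4.29 in ICM (SE 1.1, adjusted p 0.0139), and TAGLN3, whose values were not whole numbers in 1 Ribo-seq and 1 mRNA-seq library of young cells, a load higher by 4.50 in old (SE 0.87, adjusted p 7.17e-05). The ICM Ribo-seq libraries held 46239 to 225041 CDS reads, so 3 reads stand for 13.3 to 64.9 CPM there. The MKI67 difference can therefore rest on few footprints.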

How the results depend on the processing

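With a call defined as a load beyond 2-fold (edgeR's glmTreat), 275 genes were high and 697 low, and with DESeq2 they were 921 and 1477. Where only genes that passed the filter in both assays were tested, 1813 of 5999 were low and 1769 high. Leaving out each lysate in turn gave 415 to 2914 high and 736 to 3103 low calls, the lowest counts without replicate 3 and the highest without replicate 1. Each of these alternatives tests fewer samples, fewer genes or a stricter question, or uses another dispersion estimate.

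For the median log2 load of each gene list minus that of all genes, the values that moved by more than the spread between lysates were as follows. Tested among genes passing both assays they were -0.60 for ribosomal proteins, -1.46 for elongation factors, 0.011 for initiation factors, 0.15 for aminoacyl-tRNA synthetases, 0.19 for mitochondrial ribosomal proteins, 0.36 for proteasome, 0.30 for cytosolic chaperones, 0.051 for ER chaperones, -0.11 for collagen-modifying enzymes, 0.059 for other matrix, 0.18 for secreted factors, 0.26 for integrins, 0.27 for actins, 4.20 for replication-dependent histones, 0.38 for mitosis, -0.71 for iron response element mRNAs, -0.29 for selenoproteins, 0.33 for SR proteins and hnRNPs, -0.0067 for nucleolar proteins, -0.075 for growth factor receptors and 0.34 for nuclear pore, so the collagen-modifying enzymes, nucleolar proteins and growth factor receptors changed sign. With mRNA-seq reads of the UTRs counted beside the CDS they were -0.15 for ribosomal proteins, -0.73 for elongation factors, 0.55 for initiation factors, 0.99 for aminoacyl-tRNA synthetases, 0.69 for mitochondrial ribosomal proteins, 0.88 for respiratory chain, 1.09 for proteasome, 0.99 for glycolysis enzymes, 1.01 for cytosolic chaperones, 0.49 for ER chaperones, 1.01 for collagens, 0.64 for collagen-modifying enzymes, 0.80 for other matrix, -0.033 for secreted factors, 0.64 for integrins, 0.43 for tubulins, 8.14 for replication-dependent histones, -0.034 for replication-independent histones, 1.21 for mitosis, 0.73 for DNA replication, -0.10 for immediate early factors, -0.14 for selenoproteins, 0.70 for nucleolar proteins, 0.43 for lysosome and 0.99 for nuclear pore, where secreted factors, replication-independent histones and immediate early factors changed sign. Without a filter on low counts they were -1.13 for elongation factors, 0.36 for initiation factors, 0.52 for aminoacyl-tRNA synthetases, 0.54 for mitochondrial ribosomal proteins, 0.73 for proteasome, 0.64 for cytosolic chaperones, 0.40 for ER chaperones, 0.40 for other matrix, 0.55 for secreted factors, 0.64 for integrins, 0.62 for actins, 0.67 for replication-independent histones, 0.75 for mitosis, 0.71 for DNA replication, 0.088 for selenoproteins, 0.38 for nucleolar proteins, 0.31 for growth factor receptors and 0.78 for nuclear pore, where selenoproteins changed sign. With DESeq2 they were 0.55 for proteasome and 0.16 for ER chaperones, without the replicate block that pairs both assays of a lysate 0.52 for proteasome, 0.36 for other matrix and 0.68 for mitosis, with mRNA-seq thinned to the footprint depth 0.50 for proteasome, 0.33 for ER chaperones, 0.41 for other matrix, 0.54 for actins, 0.70 for mitosis and 0.30 for growth factor receptors, and with genes of at least 20 CPM of mRNA 3.35 for replication-dependent histones, -0.49 for iron response element mRNAs and -0.17 for selenoproteins. Leaving out each lysate in turn gave ranges of -0.56 to -0.34 for ribosomal proteins, -1.41 to -1.14 for elongation factors, 0.12 to 0.26 for initiation factors, 0.29 to 0.41 for aminoacyl-tRNA synthetases, 0.43 to 0.58 for proteasome, 0.49 to 0.56 for cytosolic chaperones, 0.12 to 0.32 for ER chaperones, 0.18 to 0.41 for other matrix, 0.46 to 0.54 for integrins, 0.34 to 0.56 for actins, 7.66 to 7.85 for replication-dependent histones, -0.18 to -0.051 for selenoproteins, -0.036 to 0.20 for growth factor receptors and 0.42 to 0.62 for nuclear pore. The cause of these shifts was not tested beyond the construction of each alternative. The sign of the difference held under every alternative for ribosomal proteins, elongation factors, upstream reading frame and iron response element mRNAs, the respiratory chain, proteasome, glycolysis, mitosis and DNA replication lists.

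Named genes whose log2 load changed sign were mostly near 0. With UTR reads counted they were EEF2 at 0.299, IARS at 0.425, PSMD2 at 0.320, PSMD8 at 0.492, CALR at 0.343, COL1A1 at 0.343, SPARC at -0.331, IGFBP5 at -0.761, ITGB1 at 0.0906, TUBA1B at 0.0285, CDKN1B at -0.0943, HBEGF at -0.289, CD63 at 0.281 and CTSB at -0.0922. Among genes passing both assays they were MRPL3 at -0.0928, GAPDH at -0.0145, SPARC at -0.0684, FLNA at -0.0800, MCM7 at -0.0959 and NCL at -0.0768. With DESeq2 they were MRPL3 at -0.0566, SPARC at -0.0206 and FLNA at -0.0190, with RLE scaling SPARC at -0.00782 and FLNA at -0.0179, without a filter SPARC at -0.00510 and FLNA at -0.0121, with mRNA-seq thinned IARS at 0.0260, CALR at 0.128 and FOSL1 at 0.0211, with plain totals CALR at 0.00111, with genes of at least 20 CPM CALR at 0.0515 and without the replicate block CALR at 0.0245. Leaving out each lysate in turn gave ranges of -0.0118 to 0.258 for GARS, -0.451 to 0.0230 for IARS, -0.198 to 0.109 for MRPL3, -0.0314 to 0.249 for ATP5F1B, -0.247 to 0.199 for CALR, -0.109 to 0.156 for SPARC, -0.0126 to 0.0653 for FLNA, -0.0151 to 0.241 for TUBB, -0.398 to 0.00745 for FOSL1, -0.441 to 0.978 for HBEGF and -0.369 to 0.0344 for TIPARP. Of the 124 named genes, 33 lost their call without replicate 2, 35 without replicate 3, none without replicate 1, and 14 with DESeq2. Dropping the replicate block gave 2873 high and 3169 low calls.

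Depth set the limits: 938 of the 11152 genes had under 10 footprints, and the 3 Ribo-seq libraries differed in CDS reads from 54421 to 1718521. Loads of genes with few footprints are imprecise, and those of replication-dependent histones rest on poly(A)-enriched mRNA-seq, whose part in them was not tested.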
